A study of Mus musculus with 250 samples.

Results

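Stress of the endoplasmic reticulum (ER) and of amino acid supply was read from 34 genes, of 18194 genes measured on the arrays. The genes were listed by name, and each was read from probe sets that carry its symbol alone. They were 14 ER folding genes, 4 genes of ER-associated degradation (ERAD), 3 sensors of unfolded protein, the transcription factor Atf4 and 12 genes known as Atf4 targets. A level was found for each of the 34.

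The ER folds secreted and membrane proteins with the help of chaperones, and ERAD returns misfolded proteins to the cytosol for destruction. Unfolded protein is sensed by Ern1 (IRE1) and Atf6, which raise chaperone and ERAD genes (Ern1 through Xbp1), and by Eif2ak3 (PERK), which slows translation by phosphorylating the initiation factor eIF2 and so lets Atf4 protein be made. Atf4 is also made when amino acids run short, through the kinase Eif2ak4 (GCN2), and its targets take up and build amino acids, guard against oxidation or lead to cell death. Secretory epithelium of the breast, hepatocytes and antibody-secreting plasma cells are known for high levels of the folding genes.

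Whole-tissue RNA from female FVB mice was hybridised to Affymetrix mouse arrays, 250 in all, from breast, liver, spleen, blood cells (plasma removed) and thymus, with 25 tumor-bearing and 25 control mice in each tissue. The tumor-bearing animals carried 2 transgenes, MMTV-rtTA and TetO-NeuNT: the MMTV promoter, active in mammary epithelium, drives a doxycycline-dependent activator that switches on the Neu oncogene. Controls were littermates with TetO-NeuNT alone, so they held the oncogene without its activator. Every mouse, the controls included, was given water with 5% sucrose and doxycycline (2 mg/mL) starting at 8 weeks, and a tumor-bearing mouse and its control were sampled when the tumor measured 1 cm; the age at that time is not given.

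By the labels each tumor-bearing mouse had its own control, matched for age and cage, so each tissue had 25 pairs of separate mice. Levels below are log2 intensities of the array. A change is the tumor-bearing mouse minus its matched control on that scale, with its standard error (SE) over the 25 pairs unless another number is given. A gene is said to have risen or fallen where limma, with the pair as a block, gave a Benjamini-Hochberg adjusted p under 0.05 over the 18194 genes of the tissue. In bulk tissue, fewer cells of a type and less RNA per cell cannot be told apart. Breast of tumor-bearing mice holds the tumor, and mouse Erbb2, the gene whose rat form is Neu, rose there by 1.28 ± 0.15 (limma adjusted p = 2.93e-08). The median intensity of an array differed by tissue (25.2 in blood to 129 in thymus, as medians over arrays), so levels are compared within a tissue only.

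Some arrays went against their label or stood apart. Of the 250 arrays, 21 (17 of them controls) had a median rank correlation with their tissue and group far below that of the tissue (over 5 scaled median absolute deviations), in 3 pairs of breast, 5 of liver, 3 of spleen, 5 of blood and 4 of thymus. In breast, the control of pair 1 had the low muscle and B cell marker levels of tumors, and the tumor-bearing array of pair 9 had the adipocyte and T cell marker levels of normal breast. In liver, the control of pair 9 correlated with the other control livers at 0.32 only, with hepatocyte markers at a mean of 12.46 and a median of 14.44 over all control livers. In spleen, control arrays of pairs 15 and 20 had B cell markers at 6.57 and 6.36, against a median of 12.08 in the other control spleens, and in thymus the control of pair 4 had thymocyte markers at 6.60 against 12.01. Pancreatic acinar markers were over 10 in 8 tumor-bearing and 8 control spleens. Results are therefore given over all pairs and without the pairs that hold an outlying array (22, 20, 22, 20 and 21 pairs kept in breast, liver, spleen, blood and thymus).

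Promoter windows of 300 bases, from 250 before to 50 after the RefSeq transcript start in GRCm38.p6, held 30 of the 34 genes (Atf6, Hyou1, Manf and Slc7a5 had none). The windows are of the C57BL/6J reference, and the mice were FVB. They were searched on both strands for the ER stress element ERSE (CCAAT and CCACG with any 9 bases between them), ERSE-II (ATTGG, any base, CCACG), the unfolded protein response element UPRE (TGACGTGG) and the element CARE of Atf4 with C/EBP partners (TGATGNAA). The letters of ERSE, ERSE-II and UPRE can overlap, and no matches of different motifs did so in these windows. The following 6 windows are shown because their genes carry the contrast between folding genes and Atf4 targets described below, and Herpud1 because it alone held both kinds of element. Each is written 5′ to 3′ on the gene's own strand, with the fixed letters of a match in capitals.
Hspa5, ERSE, GRCm38.p6 chr2:34771840-34772139, plus strand: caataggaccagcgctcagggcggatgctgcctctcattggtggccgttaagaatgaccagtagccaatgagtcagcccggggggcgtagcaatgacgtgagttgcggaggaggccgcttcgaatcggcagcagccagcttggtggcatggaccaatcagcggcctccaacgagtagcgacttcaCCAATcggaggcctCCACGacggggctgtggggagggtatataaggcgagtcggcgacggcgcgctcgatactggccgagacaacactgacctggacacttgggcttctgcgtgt
Hsp90b1, ERSE at 2 places, GRCm38.p6 chr10:86705395-86705694, minus strand: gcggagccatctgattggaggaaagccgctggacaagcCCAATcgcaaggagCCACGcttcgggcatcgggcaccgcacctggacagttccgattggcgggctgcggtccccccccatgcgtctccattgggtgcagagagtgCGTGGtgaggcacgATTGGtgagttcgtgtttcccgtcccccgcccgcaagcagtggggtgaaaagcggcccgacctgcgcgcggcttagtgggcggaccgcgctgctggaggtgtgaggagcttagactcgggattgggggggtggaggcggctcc
Herpud1, CARE then ERSE-II, GRCm38.p6 chr8:94386179-94386478, plus strand: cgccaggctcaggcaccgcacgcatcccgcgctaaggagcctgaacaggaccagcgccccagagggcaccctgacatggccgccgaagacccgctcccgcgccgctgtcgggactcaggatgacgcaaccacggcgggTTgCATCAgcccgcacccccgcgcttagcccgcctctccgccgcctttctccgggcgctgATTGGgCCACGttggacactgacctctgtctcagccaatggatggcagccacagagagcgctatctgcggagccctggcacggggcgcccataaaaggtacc
Asns, CARE, GRCm38.p6 chr6:7693160-7693459, minus strand: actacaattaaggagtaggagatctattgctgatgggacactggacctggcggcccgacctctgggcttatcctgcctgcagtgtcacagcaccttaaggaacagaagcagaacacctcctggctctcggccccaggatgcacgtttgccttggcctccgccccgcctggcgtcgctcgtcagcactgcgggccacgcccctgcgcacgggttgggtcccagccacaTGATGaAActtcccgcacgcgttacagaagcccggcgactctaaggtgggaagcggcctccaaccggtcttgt
Chac1, CARE, GRCm38.p6 chr2:119350992-119351291, plus strand: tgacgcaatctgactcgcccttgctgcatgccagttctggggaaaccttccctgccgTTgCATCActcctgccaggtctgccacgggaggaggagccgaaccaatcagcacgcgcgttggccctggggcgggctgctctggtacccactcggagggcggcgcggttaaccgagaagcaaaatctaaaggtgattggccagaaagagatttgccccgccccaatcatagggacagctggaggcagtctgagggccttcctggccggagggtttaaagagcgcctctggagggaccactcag
Trib3, CARE, GRCm38.p6 chr2:152344011-152344310, minus strand: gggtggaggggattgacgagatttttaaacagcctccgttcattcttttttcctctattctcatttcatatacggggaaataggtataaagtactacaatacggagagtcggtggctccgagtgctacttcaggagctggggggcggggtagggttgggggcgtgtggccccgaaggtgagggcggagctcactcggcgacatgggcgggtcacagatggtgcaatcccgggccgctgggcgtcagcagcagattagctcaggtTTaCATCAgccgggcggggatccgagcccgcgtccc

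The elements split along the roles of the genes, which follows in part from how both were chosen. The targets were listed as known Atf4 targets, and CARE is the element of Atf4. The shares are thus a description and no independent support for these roles. ERSE was in 7 of 12 folding genes with a window (Hspa5, Hsp90b1, Pdia6, Calr, Canx, Dnajc3 and Creld2), in Syvn1 among 4 ERAD genes and in 0 of 11 Atf4 targets, against 37 of 27025 genes (0.137%) with a window. ERSE-II was in Dnajb11 and Herpud1, and in 12 of all genes (0.0444%). CARE was in 5 of 11 Atf4 targets (Asns, Chac1, Trib3, Slc7a11 and Nupr1), in Herpud1 and in 0 of 12 folding genes, against 1219 of all genes (4.51%). UPRE was in 0 of the 30 genes and in 193 of all genes (0.714%). A match describes letters and is no shown binding site, and no match says only that these letters are not in the window.

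**Figure D1:**
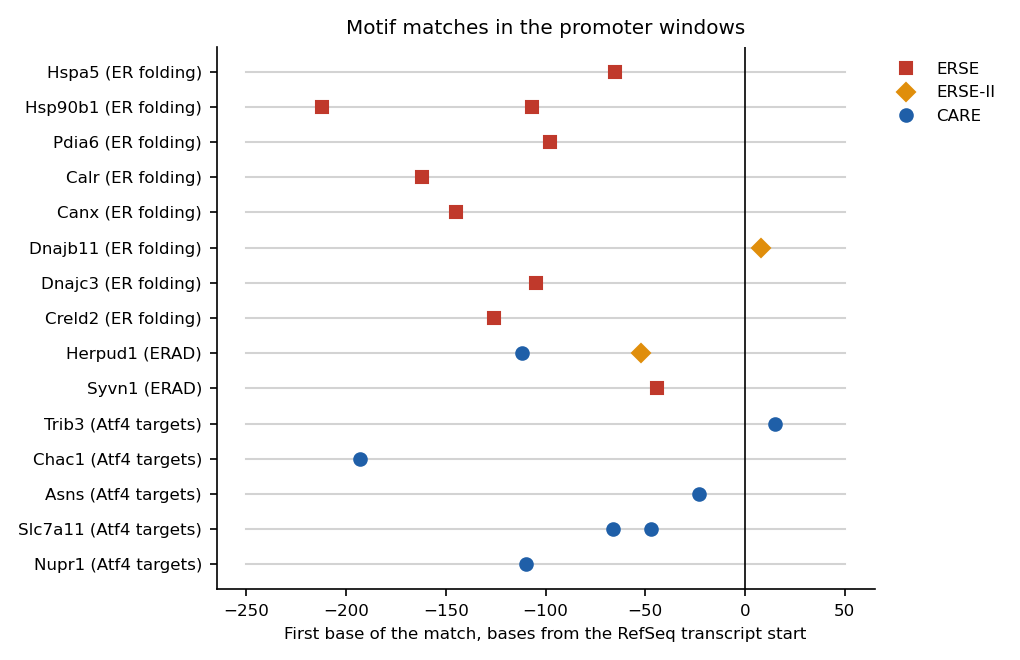
Positions of ERSE (squares), ERSE-II (diamonds) and CARE (circles) in the promoter windows of the 15 genes with a match, in bases from the RefSeq transcript start (vertical line). ERSE lies before the start in all 8 genes that hold it, from base -212 and -107 in Hsp90b1 to -44 in Syvn1, and CARE lies after the start in Trib3, at base 15.

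In breast, tumor-bearing mice had higher levels of nearly the whole ER folding group, while the Atf4 targets divided. Of the 34 genes, 22 rose (64.7%) and 6 fell (17.6%), where 30% of all genes rose and 32.3% fell. By role, 13 of 14 folding genes rose (92.9%) and 0 fell, with a median change of 1.09. Of 12 Atf4 targets 5 rose and 5 fell (41.7% each), with a median of 0.12. The rates of the targets were thus not far from those of all genes in either direction. The median over all genes was -0.03. Without the outlying arrays 22 rose and 6 fell again, where 31.8% of all genes rose and 35.8% fell.

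Hspa5 (BiP), the main Hsp70 chaperone of the ER, had lowest, median and highest levels of 12.64, 13.42 and 13.67 in tumor-bearing breasts and of 10.79, 12.49 and 13.44 in controls. The change was 0.97 ± 0.10 (limma adjusted p = 2.31e-09), higher in 24 of 25 pairs. The groups overlapped through the pairs with an outlying array: without them the change was 0.99 ± 0.05 and every tumor-bearing breast was above every control. Sdf2l1, a partner of Hspa5 and its J-domain proteins, had the largest change of the folding genes. It ran through 7.90, 9.51 and 10.34 in tumor-bearing breasts and 6.69, 7.80 and 9.65 in controls (lowest, median, highest), a change of 1.64 ± 0.17 (limma adjusted p = 7.14e-09). It was higher in 23 of 25 pairs, and again did not overlap without the outlying arrays.

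The cofactors and secreted members of the group moved as far. Dnajc3, a J-domain cochaperone of Hspa5, stood at 9.82, 11.18 and 11.84 in tumor-bearing breasts and 7.18, 9.73 and 11.12 in controls, a change of 1.45 ± 0.14 (limma adjusted p = 2.29e-09). Creld2, an ER protein with disulfide isomerase activity, stood at 9.69, 11.05 and 11.70 against 6.92, 9.79 and 11.29, a change of 1.34 ± 0.15. Manf, an ER protein that is secreted under stress, stood at 10.88, 12.14 and 12.59 against 9.05, 10.74 and 12.21, a change of 1.31 ± 0.14. The median tumor-bearing breast lay above every control for Dnajc3 and below the highest control for Creld2 and Manf, and the ranges overlapped for all 3 genes. The disulfide isomerases Pdia3 and Pdia6 rose by 1.23 ± 0.15 and 1.23 ± 0.15, from control medians of 11.42 and 9.57 to 12.79 and 10.84, and Pdia4 rose by 1.16 ± 0.13. Hyou1, which exchanges nucleotide on Hspa5, rose by 1.02 ± 0.09, the ER Hsp90 Hsp90b1 by 0.85 ± 0.09 and the J-domain protein Dnajb11 by 0.79 ± 0.09. The lectin chaperones Calr and Canx rose least among those called, by 0.71 ± 0.09 and 0.54 ± 0.07. Dnajb9, another J-domain cochaperone, was the folding gene that did not pass (0.03 ± 0.06, limma adjusted p = 0.723), higher in 12 and lower in 13 pairs.

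**Figure D2:**
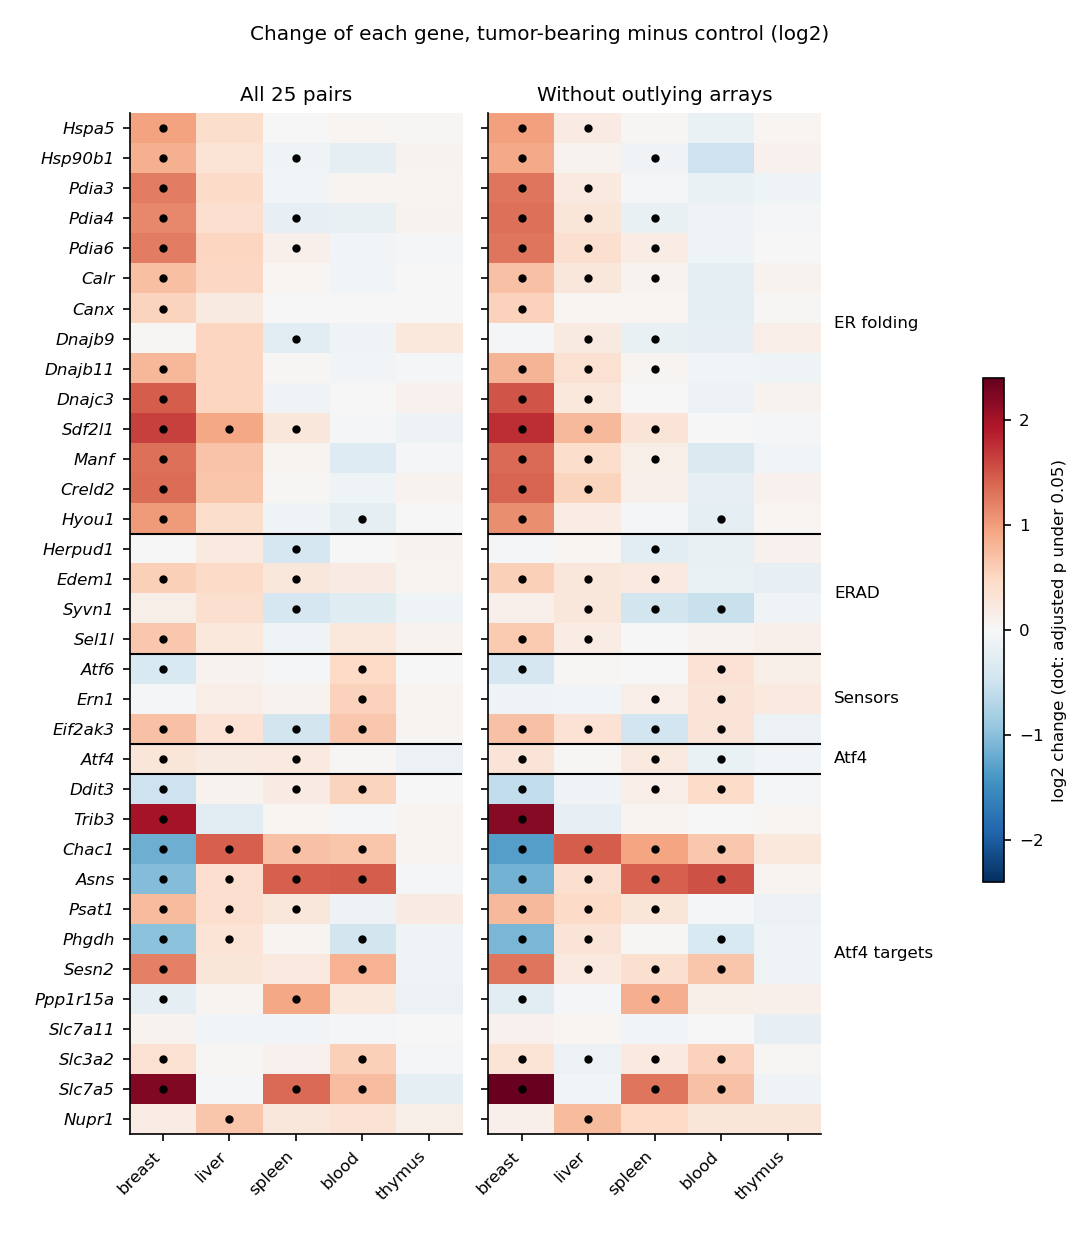
Change of each of the 34 genes (rows, by role) in the 5 tissues (columns), tumor-bearing minus control in log2, over all 25 pairs (left) and without the pairs that hold an outlying array (right); a dot marks an adjusted p under 0.05 in limma. In breast 13 of 14 folding genes are red and dotted, and Asns, Chac1 and Phgdh are blue in breast and red in liver.

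Of 4 ERAD genes 2 rose in breast. Edem1, which trims mannose from misfolded glycoproteins, rose by 0.58 ± 0.10 and Sel1l, the adaptor of the Syvn1 ubiquitin ligase, by 0.65 ± 0.11. Syvn1 (0.14 ± 0.08) and Herpud1 (-0.00 ± 0.08), a scaffold of the same complex, did not pass. The sensor Eif2ak3 rose by 0.71 ± 0.11 (limma adjusted p = 2.25e-06), and Atf4 by 0.30 ± 0.08 (limma adjusted p = 0.00158). Atf6 fell by 0.36 on its brightest probe set (limma adjusted p = 0.000488), but its other probe sets both rose by 0.30, and with the probe sets averaged the change was 0.08. Ern1 was at -0.04 ± 0.07 on its brightest probe set, and 3 others rose by 0.14 to 0.24. No direction can be given for these sensors in breast.

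Among the Atf4 targets, the amino acid transporter and 2 regulators rose most. Slc7a5, which carries leucine and other large neutral amino acids into cells, had the largest change of the 34 genes in breast. Its lowest, median and highest levels were 8.97, 9.99 and 10.35 in tumor-bearing breasts and 6.87, 7.60 and 10.29 in controls, a change of 2.23 ± 0.15 (limma adjusted p = 2.64e-11), higher in 25 of 25 pairs. Slc3a2, the heavy chain that Slc7a5 needs at the membrane, rose by 0.36 ± 0.11 only. Trib3, a pseudokinase induced with Ddit3, stood at 6.27, 9.08 and 9.80 against 6.03, 6.85 and 8.63, a change of 2.00 ± 0.17 (limma adjusted p = 2.11e-10). In the 22 pairs with no outlying array, Slc7a5 (2.38) and Trib3 (2.18) did not overlap between groups. Sesn2, a leucine sensor that restrains mTORC1, rose by 1.21 ± 0.14 on its brightest probe set and was at 0.03 on the other. Psat1, an aminotransferase of serine synthesis, rose by 0.76 ± 0.14.

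A further 5 targets fell in tumor-bearing breasts. Asns, which makes asparagine, stood at 7.98, 8.80 and 11.16 in tumor-bearing breasts and 8.89, 9.98 and 10.70 in controls, a change of -1.03 ± 0.14 (limma adjusted p = 5.23e-07), lower in 23 of 25 pairs. The tumor-bearing breast at 11.16 lay above all controls, and the median tumor-bearing breast lay below all of them. Chac1, an enzyme that degrades glutathione, stood at 6.34, 6.86 and 8.73 against 6.86, 8.02 and 9.63, a change of -1.18 ± 0.21 (limma adjusted p = 1.65e-05). Phgdh, which opens serine synthesis, stood at 6.37, 8.29 and 9.81 against 7.32, 9.42 and 10.46, a change of -0.98 ± 0.19 (limma adjusted p = 5.84e-05). Phgdh thus fell where Psat1, of the same route, rose. Ddit3 (CHOP), the death-linked factor of the pathway, fell by 0.49 ± 0.08 and Ppp1r15a (GADD34), which reverses eIF2 phosphorylation, by 0.22 ± 0.06. Slc7a11, the cystine transporter (0.08 ± 0.05), and Nupr1, a stress-induced chromatin protein (0.17 ± 0.13), did not pass.

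Without the outlying arrays, 13 of the 34 genes had every tumor-bearing breast above every control, 11 folding genes with Trib3 and Slc7a5, where 2.97% of all genes did so. None was without overlap in the other direction, where 4.33% of all genes were. Over all pairs, 0 of the 34 genes and 0.00% of all genes were without overlap in breast.

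The make-up of the breast samples moved with these changes. The mean of the luminal epithelium markers ran from 10.36 to 11.88 in tumor-bearing breasts and from 8.53 to 11.52 in controls, with 7 of 8 markers rising. Adipocyte markers ran from 6.49 to 11.93 against 10.37 to 12.96, with 7 of 7 falling, and B cell markers (6 of 6) and T cell markers (6 of 6) fell as well. Of 9 plasma cell markers 2 rose and 6 fell. The log2 ratio of 3′ to 5′ Gapdh probe sets, a sign of RNA quality, was 0.03 in tumor-bearing breasts and 0.79 in controls on average (difference -0.76 ± 0.17, permutation p = 0.00013). With that ratio as a covariate, 20 of the 34 genes rose and 5 fell in breast, where 23.4% of all genes rose and 24.9% fell. In the earlier of the 2 series of sample IDs (10 pairs) 19 rose and 4 fell, where 18.2% and 20.5% of all genes did, and in the later (15 pairs) 22 and 6, where 28.0% and 28.2% did. Beyond the fit with the Gapdh ratio, the part of tissue make-up and RNA quality in these changes was not tested.

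**Figure D3:**
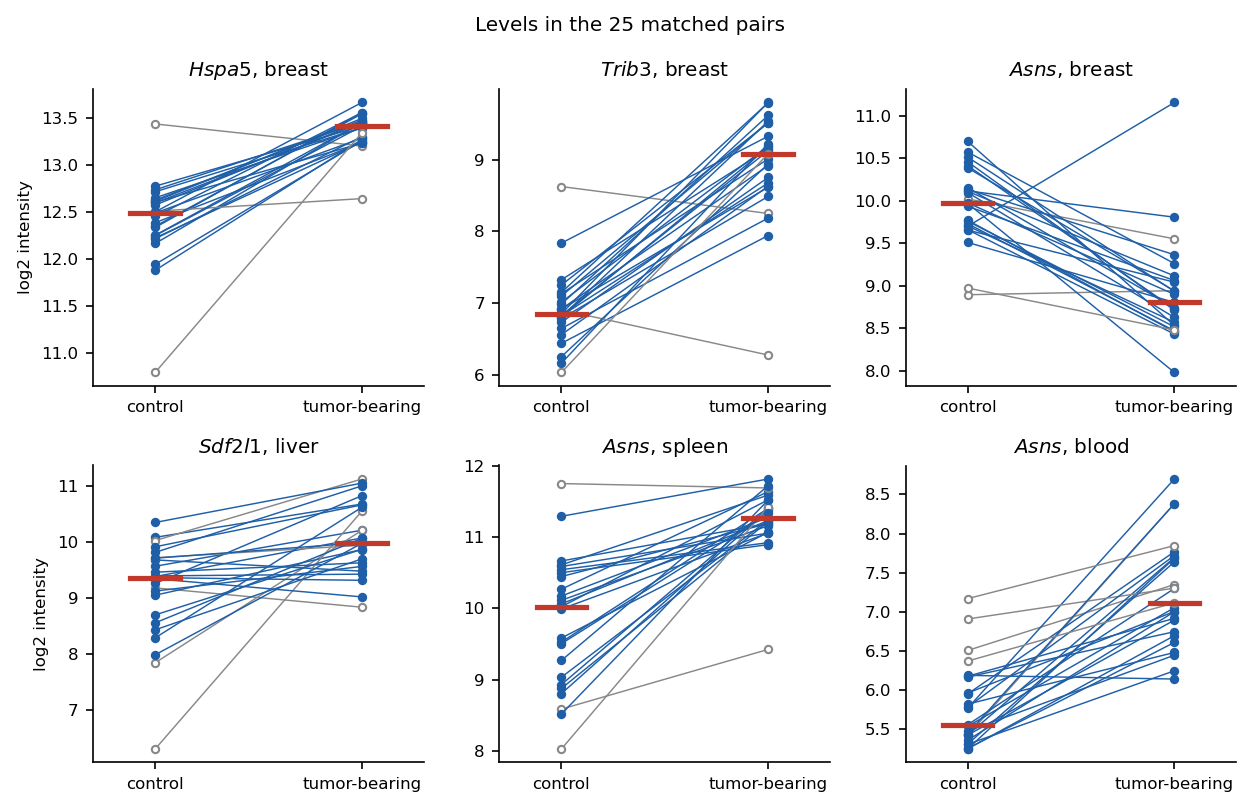
Log2 intensity in each control and its matched tumor-bearing mouse (lines join the 25 pairs; red bars are medians; grey open points are pairs with an outlying array) for Hspa5, Trib3 and Asns in breast, Sdf2l1 in liver and Asns in spleen and blood. Asns falls from a median of 9.98 to 8.80 in breast and rises from 10.02 to 11.28 in spleen and from 5.56 to 7.12 in blood.

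In liver, a smaller shift of the folding genes was seen beside a clear rise of Chac1. Over all pairs 7 of the 34 genes rose (20.6%) and 0 fell, where 7.89% of all genes rose and 2.28% fell. They were Sdf2l1, the sensor Eif2ak3 and 5 Atf4 targets. Without the outlying arrays 21 rose (61.8%) and Slc3a2 fell, where 18.6% of all genes rose and 18.9% fell. Leaving out pair 9 alone gave 17 and 0, against 11% and 7.68% of all genes. The control liver of that pair was far below the others in the folding genes, with Hspa5 at 7.32 against a control median of 13.22. Some of the risen genes were dim. Over all pairs, with genes under the median level of liver left out, 28 of the 34 genes remained. Of these 3 rose and 0 fell, where 10.6% and 2.36% of the genes tested did.

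Chac1 had the largest change in liver. Its lowest, median and highest levels were 6.13, 8.36 and 9.55 in livers of tumor-bearing mice and 6.12, 6.89 and 7.69 in controls, a change of 1.43 ± 0.14 (limma adjusted p = 1.22e-08), higher in 24 of 25 pairs. The median of the tumor-bearing mice lay above the highest control, and the groups overlapped. Sdf2l1 stood at 8.84, 9.99 and 11.12 against 6.31, 9.36 and 10.35, a change of 0.92 ± 0.20 (limma adjusted p = 0.00148) and of 0.78 without the outlying arrays. Nupr1 stood at 4.73, 6.10 and 7.04 against 4.80, 5.36 and 6.88, a change of 0.66 ± 0.12 (limma adjusted p = 0.000204). The amino acid enzymes Psat1 (0.40 ± 0.10), Asns (0.39 ± 0.09) and Phgdh (0.32 ± 0.08) rose in 23, 22 and 23 of 25 pairs, with control medians at 4.53, 5.59 and 6.35. Eif2ak3 rose by 0.34 ± 0.07.

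Most folding genes of the liver passed the test in the pairs without an outlying array and not over all pairs. Over all pairs their median change was 0.50 and Sdf2l1 alone passed; without the outlying arrays the median was 0.26 and 11 of 14 rose. Creld2 (0.53 ± 0.20), Manf (0.42 ± 0.11), Pdia6 (0.38 ± 0.06) and Dnajb11 (0.36 ± 0.08) then changed most after Sdf2l1. Hspa5 was at 12.77, 13.41 and 13.75 in tumor-bearing mice and 7.32, 13.22 and 13.56 in controls, with a change of 0.43 ± 0.23 over all pairs (limma adjusted p = 0.327) and 0.20 ± 0.05 without the outlying arrays (limma adjusted p = 0.00437). Pdia3 rose by 0.23, Pdia4 by 0.29, Calr by 0.27, Dnajc3 by 0.24 and Dnajb9 by 0.21 in those 20 pairs. Hsp90b1 (0.08), Canx (0.04) and Hyou1 (0.18) did not pass there. Edem1 (0.27), Syvn1 (0.28), Sel1l (0.18) and Sesn2 (0.23) rose as well, and Slc3a2 fell by 0.14. Atf4 (0.03), Ddit3 (-0.08), Trib3 (-0.19) and Slc7a5 (-0.06) in the same 20 pairs did not pass, nor did they over all pairs.

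In liver, 9 of 9 neutrophil markers rose, from a median mean level of 5.69 in controls to 8.81, while the hepatocyte mean had medians of 14.44 and 14.45. Of the macrophage markers 2 of 7 rose, and of the endothelium markers 3 of 6, or 5 of 7 and 6 of 6 with the outlying arrays left out. The part of these cell types in the changes of the liver was not tested. In the earlier series of sample IDs, which holds pair 9, 1 of the 34 genes rose and 0 fell, where 0.467% and 0.0550% of all genes did. In the later series 20 rose and 1 fell, where 12.1% and 11.7% did.

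In spleen, 6 of the 12 Atf4 targets rose, some by over 1, while the changes of the folding genes were small. Of the 34 genes 10 rose (29.4%) and 6 fell (17.6%), where 22.4% of all genes rose and 18.3% fell, so the whole set was near the rate of all genes. Among the 12 Atf4 targets 6 rose and 0 fell (median 0.25), and among the 14 folding genes 2 rose and 3 fell (median 0.00). With the outlying arrays left out 16 rose and 6 fell, where 28.9% and 26.4% of all genes did, with 8 of 12 targets and 5 of 14 folding genes rising.

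Asns stood at 9.42, 11.28 and 11.82 (lowest, median, highest) in tumor-bearing spleens and 8.03, 10.02 and 11.75 in controls, a change of 1.43 ± 0.18 (limma adjusted p = 2.43e-07), higher in 24 of 25 pairs. Slc7a5 stood at 8.64, 10.84 and 11.35 against 7.31, 9.44 and 10.76, a change of 1.36 ± 0.13 (limma adjusted p = 9.42e-09), higher in 25 of 25 pairs. The tumor-bearing array of pair 15, which is outlying, was the lowest for both genes, and the groups overlapped. Ppp1r15a stood at 8.24, 11.42 and 11.92 against 8.31, 10.48 and 11.96, a change of 0.93 ± 0.14 (limma adjusted p = 7.31e-06). Chac1 stood at 6.31, 7.47 and 8.66 against 6.21, 6.52 and 10.77, a change of 0.70 ± 0.17 (limma adjusted p = 0.00169), and of 0.95 ± 0.11 without the outlying arrays, where it was higher in 22 of 22 pairs. Psat1 (0.27 ± 0.06), Atf4 itself (0.24 ± 0.04) and Ddit3 (0.19 ± 0.04) rose by less, and Sesn2 (0.39 ± 0.04) and Slc3a2 (0.23 ± 0.04) rose without the outlying arrays. Trib3, with the second largest change in breast, was at 0.06 ± 0.04 in spleen (limma adjusted p = 0.312), and its dimmer probe set rose by 0.14.

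The ER side of the spleen moved both ways and by small amounts. Eif2ak3 fell by 0.44 ± 0.05 (limma adjusted p = 1.35e-07), from a control median of 10.35 to 9.83, lower in 23 of 25 pairs. Herpud1 fell by 0.41 ± 0.10, Syvn1 by 0.40 ± 0.06 and Dnajb9 by 0.25 ± 0.06. Pdia4 fell by 0.19 ± 0.06 and Hsp90b1 by 0.10 ± 0.03. Sdf2l1 (0.27 ± 0.06), Edem1 (0.26 ± 0.09) and Pdia6 (0.13 ± 0.04) rose, the last on its brighter probe set, while the dimmer fell by 0.20. Hspa5 was at -0.01 ± 0.03 (limma adjusted p = 0.896), with control and tumor-bearing medians of 12.68 and 12.69; its dimmest probe set rose by 0.40.

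The pancreas adjoins the spleen, and its acinar cells are known to be rich in folding genes. Their 9 measured markers had means from 5.59 to 13.99 in tumor-bearing and from 5.85 to 14.48 in control spleens. Without the 14 pairs with such an array over 10, in the 11 that remain, 4 genes rose (Asns 1.40, Slc7a5 1.24, Nupr1 0.62 and Psat1 0.34) and Eif2ak3 fell by 0.29, where 7.75% of all genes rose and 3.42% fell. Leaving out the outlying arrays as well, in 9 pairs, 9 rose and 3 fell, against 18.3% and 16.8%. Neutrophil markers rose (9 of 9) from a median mean level of 10.76 to 13.12 in spleen, and the B cell median was 12.07 in controls and 11.32 in tumor-bearing mice. Plasma cell markers had medians of 10.17 and 9.95. Of the erythroid markers 4 of 5 rose and of the T cell markers 1 of 6 fell, or 5 of 5 and 6 of 6 with the outlying arrays left out. The Gapdh ratio was higher in tumor-bearing spleens by 0.12 ± 0.05 (permutation p = 0.0132), and with it as a covariate 9 of the 34 genes rose and 5 fell, where 20.9% of all genes rose and 18% fell. The part of these cell types in the spleen's changes was not tested. Of the 34 genes 12 rose and 5 fell in the earlier series of sample IDs, where 22% and 21.3% of all genes did, and 5 and 5 in the later, where 16.1% and 10% did.

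In blood cells, 6 of the 12 Atf4 targets and the 3 sensors rose, and none of the folding genes did. Of the 34 genes 9 rose (26.5%) and 2 fell (5.88%), where 8.66% of all genes rose and 4.27% fell. Among the targets 6 rose and Phgdh fell (median 0.44), 3 of 3 sensors rose, and among the folding genes 0 rose and Hyou1 fell (median -0.07). With the outlying arrays left out 9 rose and 4 fell, where 10.8% and 13.3% of all genes did; Syvn1 (-0.53) and Atf4 (-0.16) were the genes added.

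Asns had the largest change in blood, at 6.14, 7.12 and 8.70 in tumor-bearing mice and 5.25, 5.56 and 7.17 in controls (lowest, median, highest), a change of 1.45 ± 0.16 (limma adjusted p = 2.65e-07), higher in 24 of 25 pairs. Sesn2 stood at 5.42, 6.13 and 7.41 against 4.49, 5.36 and 5.80, a change of 0.84 ± 0.12 (limma adjusted p = 1.03e-05), with the median of tumor-bearing mice above every control. Slc7a5 stood at 8.88, 10.01 and 11.08 against 6.91, 9.32 and 10.65, a change of 0.74 ± 0.14 (limma adjusted p = 0.000462). Its heavy chain Slc3a2 rose with it, by 0.58 ± 0.10, and both were higher in at least 23 pairs. Chac1 stood at 5.08, 5.97 and 6.75 against 4.38, 5.20 and 6.68, a change of 0.66 ± 0.11 (limma adjusted p = 6.2e-05). Ddit3 rose by 0.54 ± 0.09 (limma adjusted p = 6.58e-05) and Phgdh fell by 0.44 ± 0.10. Eif2ak3 rose by 0.66 ± 0.22 (limma adjusted p = 0.0497), Ern1 by 0.56 ± 0.18 (limma adjusted p = 0.0419) and Atf6 by 0.48 ± 0.11 (limma adjusted p = 0.0026). The calls of Ern1 and Eif2ak3 were lost when single pairs with an outlying array were left out (Ern1 without pair 3, 5 or 25, Eif2ak3 without pair 3, 5, 19 or 25), and held without all 5 such pairs (0.32 for each).

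The folding genes of blood spread widely between pairs. The change of Hspa5 was 0.04 ± 0.23 (limma adjusted p = 0.945), with levels of 8.15, 9.35 and 10.77 in tumor-bearing mice and 7.24, 9.38 and 11.54 in controls, so the groups lay over each other. Hyou1 fell by 0.21 ± 0.05, lower in 21 of 25 pairs. Trib3 and Psat1 were dim in blood, with control medians of 4.65 and 3.86, that of Psat1 close to the floor of the values, and did not pass. The neutrophil marker mean had medians of 9.32 in tumor-bearing mice and 6.79 in controls (6 of 9 rose), and B cell markers of 6.11 and 7.19 (5 of 6 fell). Hepatocyte markers had medians of 5.41 in tumor-bearing and 5.42 in control blood. Single arrays reached means of 9.65 and 11.29, also with the outlying arrays left out. The part of these cell types in the changes and the spread of blood was not tested. In the earlier series of sample IDs 2 genes rose and 0 fell, where 1.67% and 0.0769% of all genes did. In the later 7 rose and 1 fell, where 6.15% and 5.51% did.

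In thymus none of the 34 genes passed limma at an adjusted p under 0.05, in all pairs or without the outlying arrays, where 0.0110% and 0.231% of all genes rose, and 0.00% and 0.0165% fell. At an unadjusted p under 0.05 there was 1 (Atf4, -0.15 ± 0.06) over all pairs, where 4.16% of all genes were, and 2 without the outlying arrays (Edem1 -0.20 and Ern1 0.23), where 17.2% were. Array weights and quantile normalization in limma also gave 0. The changes of the 34 genes lay between -0.23 (Slc7a5) and 0.25 (Dnajb9). Hspa5 stood at 11.96, 12.52 and 12.94 in tumor-bearing mice and 11.54, 12.53 and 13.25 in controls, and Asns at 7.88, 8.37 and 10.01 and 6.82, 8.53 and 11.59. In the earlier and later series of sample IDs 0 genes passed as well, where 0.00% and 0.0660% of all genes rose. Thymus samples varied in make-up, also without the outlying arrays. There the skeletal muscle markers had means from 6.59 to 13.09 in tumor-bearing mice and from 6.51 to 12.08 in controls. Of the neutrophil markers S100a8 (1.88 ± 0.31) and S100a9 (2.21 ± 0.37) rose over all pairs. The part of tissue make-up in the thymus values was not tested.

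**Figure D4:**
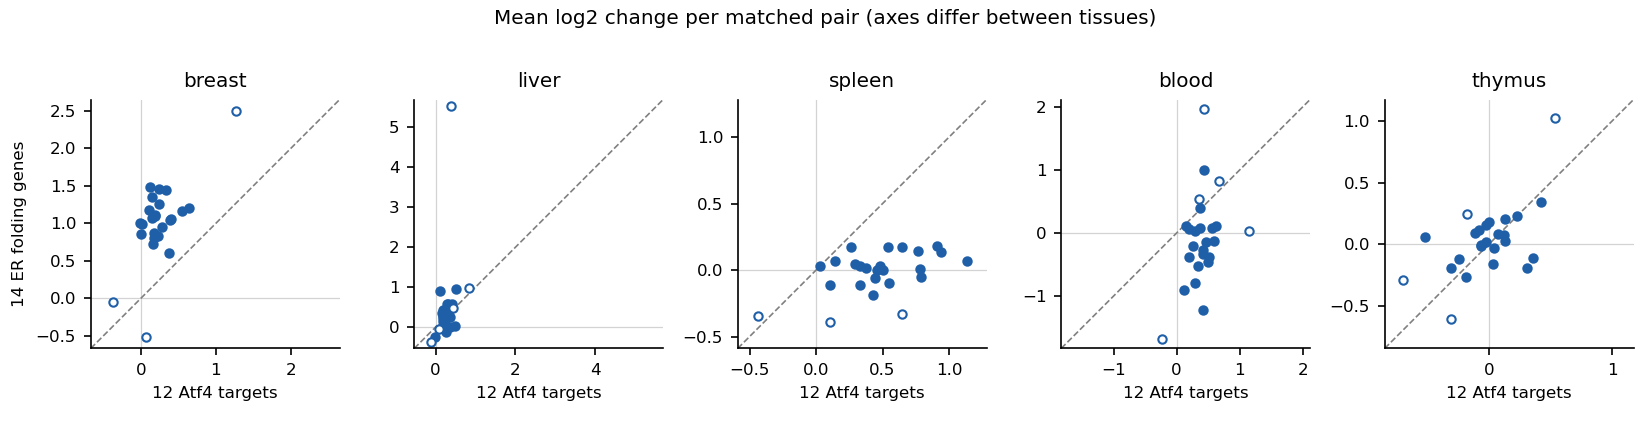
Mean log2 change of the 12 Atf4 targets (horizontal) and of the 14 ER folding genes (vertical) in each of the 25 pairs of a tissue; the dashed line marks equal change and open points are pairs with an outlying array. Points lie above the line in 24 of 25 pairs in breast and below it in 23 of 25 in spleen and 20 of 25 in blood.

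Set side by side within each pair, folding genes led in breast and Atf4 targets in spleen and blood. In breast the mean change of the 14 folding genes had a median over pairs of 1.06 and that of the 12 targets of 0.18, with the folding mean above in 24 of 25 pairs and in 22 of 22 without the outlying arrays. In liver the medians were 0.27 and 0.26, with the folding mean above in 14 of 25 pairs (11 of 20). In spleen they were 0.01 and 0.46, with the folding mean above in 2 of 25 pairs (1 of 22). In blood they were -0.12 and 0.42, with the folding mean above in 5 of 25 pairs (2 of 20). In thymus they were 0.02 and -0.02, with 16 of 25 (13 of 21). Within the earlier and later series of sample IDs the folding mean was above in 9 of 10 and 15 of 15 pairs in breast, 0 of 10 and 2 of 15 in spleen, and 3 of 10 and 2 of 15 in blood. The genes were chosen with results known, so these means are a description with no test. The targets' mean joins genes that rose and fell in breast, and the folding mean there joins genes that almost all rose.

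The difference of a gene's change between tissues was tested within the same mice, linked across tissues by their sample IDs, a link that the labels do not state. Of the 34 genes, 28 differed between breast and spleen (14 of 14 folding genes and 9 of 12 targets), where 54.8% of all genes did. For breast against thymus 25 differed (44.4% of all genes), against blood 23 (48.0%) and against liver 16 (39.5%). The last was 30 without the outlying arrays, where 59.1% of all genes differed. Between spleen and thymus 11 differed (19.6%), between liver and spleen 12 (19.5%), between liver and blood 10 (12.3%), between spleen and blood 10 (21.1%), between blood and thymus 6 (5.88%) and between liver and thymus 3 (3.42%). With the outlying arrays left out 30 genes differed between breast and spleen (62.3% of all genes), 25 between liver and spleen (50.2%) and 10 between spleen and blood (31.1%). Between spleen and blood, over all pairs, 0 of 14 folding genes and 7 of 12 targets differed.

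Several Atf4 targets moved in opposite directions between tissues. The change of Asns in breast was lower than in spleen by a difference of -2.46 ± 0.19 (limma adjusted p = 8e-11) and lower than in blood by -2.48 ± 0.23. Between spleen and blood its change differed by -0.02 ± 0.22 (limma adjusted p = 0.953), a difference smaller than its SE. Chac1 was lower in breast than in liver by -2.61 ± 0.25 (limma adjusted p = 1.19e-09), and Trib3 higher in breast than in liver by 2.27 ± 0.21 (limma adjusted p = 1.1e-09). Slc7a5 rose further in breast than in spleen (0.87 ± 0.19, limma adjusted p = 0.000297). Hspa5 rose further in breast than in spleen (0.97 ± 0.11), while against liver its difference of 0.54 ± 0.28 did not pass over all pairs (limma adjusted p = 0.134) and was 0.77 without the outlying arrays (limma adjusted p = 7.88e-09).

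**Figure D5:**
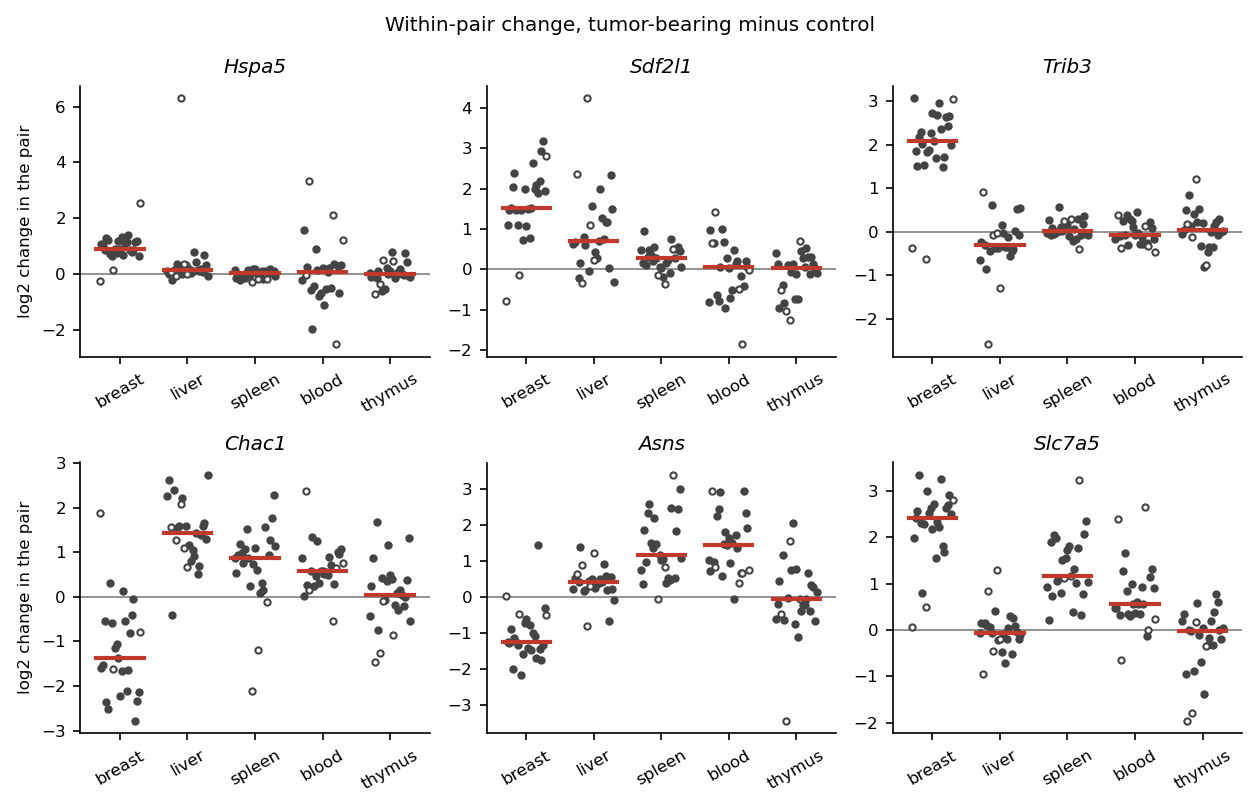
Within-pair change (log2, tumor-bearing minus control) of 6 genes in the 25 pairs of each tissue; red bars are medians and open points are pairs with an outlying array. Trib3 is above 1 in 23 of 25 pairs of breast, 1 pair of thymus and none of liver, spleen and blood, and Asns lies below 0 in 23 of 25 pairs of breast and above 0 in 24 of 25 pairs of spleen and of blood.

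Changes of 6 gene pairs were correlated over the 25 mouse pairs of each tissue, 30 relations adjusted together. Values of p are given first for Pearson's r and then for Spearman's rho, and the smallest that the 100000 permutations can give is 1e-05. Hspa5 and Hsp90b1 changed together in breast (r = 0.91 and rho = 0.80, two-sided permutation p = 1e-05 and 1e-05, adjusted p = 7.5e-05 and 0.00015) and in blood (r = 0.96 and rho = 0.89, two-sided permutation p = 1e-05 and 1e-05, adjusted p = 7.5e-05 and 0.00015). They did so in spleen as well (r = 0.64 and rho = 0.71, two-sided permutation p = 0.00089 and 0.00013, adjusted p = 0.00334 and 0.000975). With the 2 pairs farthest from the median left out, r was 0.79 in breast, 0.93 in blood and 0.54 in spleen. It was 0.96, 0.98 and 0.51 in the earlier and 0.87, 0.94 and 0.72 in the later series. Without the outlying arrays it was 0.63, 0.90 and 0.58. The earlier series of breast holds pairs 1 and 9, each with an outlying array. In liver the r of Hspa5 and Hsp90b1 was 0.98. It fell to 0.46 with the 2 liver pairs farthest from the median left out, so its size rests on those pairs. It was 0.60 without the outlying arrays, and rho was 0.51 (two-sided permutation p = 0.0087, adjusted p = 0.0261). Hspa5 and Sdf2l1 changed together in liver (r = 0.76 and rho = 0.76, two-sided permutation p = 1e-05 and 2e-05, adjusted p = 7.5e-05 and 0.0002), and r was 0.72 with the 2 farthest pairs left out, 0.85 in the earlier and 0.89 in the later series. They also did so in breast (r = 0.74 and rho = 0.64, two-sided permutation p = 5e-05 and 0.001, adjusted p = 0.0003 and 0.00429) and in blood (r = 0.68 and rho = 0.54, two-sided permutation p = 0.00033 and 0.00589, adjusted p = 0.00165 and 0.0196). There r was 0.66 and 0.44 with the 2 farthest pairs left out, and 0.50 and 0.69 without the outlying arrays. In spleen and thymus they did not pass. Between a folding gene and an Atf4 target, Hspa5 and Trib3 changed together in breast (r = 0.76 and rho = 0.68, two-sided permutation p = 1e-05 and 0.00034, adjusted p = 7.5e-05 and 0.00204). Their r was 0.74 with the 2 farthest pairs left out, 0.90 in the earlier, 0.60 in the later series and 0.53 without the outlying arrays. Hspa5 and Asns did not pass in breast (r = -0.22 and rho = -0.28, two-sided permutation p = 0.256 and 0.17, adjusted p = 0.365 and 0.3). In liver their r of -0.52 was -0.05 with the 2 farthest pairs left out, so the relation rests on those pairs.

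Among the targets, Trib3 and Asns changed together in blood (r = 0.60 and rho = 0.59, two-sided permutation p = 0.00151 and 0.00223, adjusted p = 0.00503 and 0.00836) and in thymus (r = 0.57 and rho = 0.65, two-sided permutation p = 0.0046 and 0.00051, adjusted p = 0.0138 and 0.00255). With the 2 farthest pairs left out r was 0.66 and 0.45, and it was 0.81 and 0.76 in the earlier and 0.40 and 0.68 in the later series. In liver they did not pass (r = -0.45 and rho = -0.44, two-sided permutation p = 0.0315 and 0.0286, adjusted p = 0.0675 and 0.0715). Trib3 and Ddit3, whose products bind each other, were negatively correlated in blood (r = -0.47 and rho = -0.47, two-sided permutation p = 0.0166 and 0.0176, adjusted p = 0.0454 and 0.048), with r at -0.48 without the 2 farthest pairs, -0.40 in the earlier and -0.52 in the later series. In thymus their r of 0.49 was 0.03 with the 2 farthest pairs left out. Trib3 was dim in blood, which limits what its relations with Asns and Ddit3 there can show.

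Beyond the 34 genes, 39 other genes of ER folding and ERAD and 39 other genes of the amino acid and integrated stress response were measured. Of the ER list 32 rose (82.1%) and 3 fell (7.69%) in breast, where 30% of all genes rose and 32.3% fell, with Sec11c of the signal peptidase (1.03 ± 0.10), the transcription factor Xbp1 (0.76 ± 0.07) and the disulfide reductase Dnajc10 (0.56 ± 0.05) rising, and Derl1 (-0.61 ± 0.07), a channel protein of ERAD, Crebrf (-0.68 ± 0.11) and Wfs1 (-0.27 ± 0.05) falling. In liver 7 rose (17.9%) and 0 fell, where 7.89% and 2.28% of all genes did, and with the outlying arrays left out 21 (53.8%) and 1, where 18.6% and 18.9% did. The 3 with the smallest p over all pairs were Dnajc10 (0.68 ± 0.15), Creb3l2 (0.62 ± 0.14) and the glycoprotein folding sensor Uggt1 (0.34 ± 0.08). In spleen 6 rose (15.4%, below the 22.4% of all genes) and 12 fell (30.8%, against 18.3%), with Ssr1 (0.32 ± 0.04), the oxidase Ero1a (0.52 ± 0.08) and Fkbp14 (0.36 ± 0.07) rising, and Crebrf (-0.64 ± 0.06), the disulfide isomerase Txndc5 (-0.51 ± 0.05) and Selenos (-0.31 ± 0.04) falling. In blood, where 8.66% of all genes rose and 4.27% fell, 3 rose (Xbp1 0.92 ± 0.23, Edem2 0.82 ± 0.15 and Selenok 0.49 ± 0.16) and Txndc5 fell (-0.47 ± 0.12). With the outlying arrays left out 3 rose and 12 fell (30.8%), where 10.8% and 13.3% of all genes did.

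In breast 17 genes of the amino acid list rose (43.6%) and 16 fell (41.0%), where 30% and 32.3% of all genes did. Eif2ak2 (PKR), a kinase of eIF2 (1.40 ± 0.14), the mitochondrial folate enzyme Aldh1l2 (1.34 ± 0.12) and the cationic amino acid transporter Slc7a1 (1.00 ± 0.10) rose. The glutamine transporter Slc1a5 (-3.31 ± 0.27), the alanine aminotransferase Gpt2 (-1.77 ± 0.15) and the translation repressor Eif4ebp1 (-1.60 ± 0.13) fell. In spleen 22 rose (56.4%) and 2 fell (5.13%), where 22.4% and 18.3% of all genes did, with the folate enzyme Mthfd2 (1.19 ± 0.12), Eif2ak2 (0.92 ± 0.09) and the tRNA synthetase Cars (0.75 ± 0.06) rising, and the amino acid sensor Eif2ak4 (-0.30 ± 0.06) and Wars (-0.26 ± 0.06) falling. In blood 7 rose (17.9%) and 2 fell (5.13%), where 8.66% and 4.27% of all genes did, and with the outlying arrays left out 8 rose and 8 fell (20.5% each, against 10.8% and 13.3%). Among those called over all pairs were Mthfd2 (2.09 ± 0.14), Jdp2 (1.26 ± 0.13) and Nars (0.95 ± 0.14), which rose, and the tRNA synthetases Wars (-0.42 ± 0.10) and Eprs (-0.38 ± 0.13), which fell. In liver 6 rose (15.4%) and 1 fell (2.56%), where 7.89% and 2.28% of all genes did, or 13 (33.3%) and 7 (17.9%) with the outlying arrays left out, where 18.6% and 18.9% did, with the proline enzyme Aldh18a1 (0.73 ± 0.15), Cars (0.72 ± 0.15) and Mthfd2 (0.35 ± 0.07) rising and Vldlr (-1.50 ± 0.25) falling. In thymus 0 genes of either list passed limma.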

How the data were processed

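The authors deposited probe set values as intensity on a linear scale. How they summarised and normalized the arrays is not given in the sources used here. A floor was set at the 5th percentile (11.3) before taking log2. Of 45101 probe sets, 34958 had 1 symbol, and for each of 18194 genes the probe set with the highest mean was used. Symbols follow the RefSeq annotation of GRCm38.p6 (34754 probe sets matched by Entrez number). Groups were compared within each tissue in R 4.3.3, using limma 3.58.1 and a block for each pair. The pairing comes from the labels: after removing group means, the median correlation of paired mice ran from 0.08 (breast) over 0.15 (spleen), 0.22 (blood) and 0.25 (thymus) to 0.31 (liver), and from -0.02 to 0.01 for other pairings. Tissue contrasts used limma on within-pair differences of linked mice, with links read from sample IDs. An array was outlying where its median Spearman correlation with its group lay over 5 scaled median absolute deviations below the tissue's median. Correlations used 100000 two-sided permutations in Python 3.11.15 (numpy 2.4.6, scipy 1.17.1, pandas 2.3.3, matplotlib 3.10.9).

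The fit was tested on simulated data with known changes in genes above the median level. It recovered 45% (blood) to 85% (spleen) of changes of 0.5, with 47% in liver. Of changes of 1.0 it recovered 93% (liver) to 99% (spleen). Among the genes called, 6.0% (blood) to 7.47% (thymus) were false. No array was made outlying in the simulation. The members and gene lists were chosen with earlier results of these data known. By the rule for named genes all 34 members may be named, the called members with the largest changes (up to 8 per tissue) are given in full, and up to 3 called genes per direction and tissue of each wider list are named, by smallest p. Alternatives covered the floor, a pseudocount, quantile normalization, other probe set choices, dim genes, array weights, the Gapdh ratio, the pair block, the sample ID series and left-out pairs. The number of arrays limits the precision.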

Additional observations from a re-analysis of the deposited data

Results flagged for a closer look

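For 18 differences, a gene was called up in one tissue and down in another, and the difference of its change within linked mice passed limma; all 18 also passed without the outlying arrays. Values are the change in the tissue named before minus that in the tissue named after it, in log2.

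Between breast and liver these were Chac1 (-2.61), Asns (-1.43) and Phgdh (-1.30), all lower in breast and higher in liver of tumor-bearing mice. Between breast and spleen the folding genes Hsp90b1 (0.95) and Pdia4 (1.35) and the sensor Eif2ak3 (1.15) rose in breast and fell in spleen. In the same comparison Ddit3 (-0.69), Chac1 (-1.88), Asns (-2.46) and Ppp1r15a (-1.15) fell in breast and rose in spleen. Between breast and blood, Hyou1 (1.23) rose in breast and fell in blood, and Atf6 (-0.84), Ddit3 (-1.04), Chac1 (-1.84) and Asns (-2.48) did the reverse; the fall of Atf6 in breast holds for its brightest probe set and not for the others. Eif2ak3 rose in liver and fell in spleen (0.78), and fell in spleen and rose in blood (-1.10). Phgdh rose in liver and fell in blood (0.77).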

How the results depend on the processing

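Of the 62 calls over the 5 tissues, 62 were kept without the floor, with the pseudocount, with array weights and without the outlying arrays, 61 without the pair block (replicate block), 57 with quantile normalization, 56 with the Gapdh ratio as a covariate, 53 in the later and 40 in the earlier sample ID series. Without the block, 22 members rose and 6 fell in breast, where 28.6% and 30.7% of all genes did. For liver it was 8 and 0 (7.33% and 2.09% of all genes), and for spleen 9 and 6 (20.7% and 16%). For blood it was 9 and 2 (8.30% and 3.34%), and for thymus 0 (0.0110% and 0.00%). In liver the number rising was 3 of 28 tested without dim genes (10.6% of all genes rose), 21 without the outlying arrays (18.6%), 1 in the earlier (0.467%) and 20 in the later series (12.1%), 22 with array weights (19%), 15 with the Gapdh ratio (10.7%) and 17 without pair 9. The number falling in liver was 1 with quantile normalization (Trib3, -0.39), where 4.06% of all genes fell. It was 1, Slc3a2, without the outlying arrays (-0.14), in the later series (-0.17) and with array weights (-0.14). There 18.9%, 11.7% and 20.2% of all genes fell. In spleen 16 rose without the outlying arrays, 5 in the later series, and 4 (with 1 falling) without the pairs with pancreatic acinar RNA, an alternative chosen after seeing the data. In blood 2 rose in the earlier series, where 1.67% of all genes did. The number falling was 1 with probe sets averaged (5.42% of all genes fell). It was also 1 without _x_at and _s_at probe sets (4.08%) and in the later series (5.51%). It was 0 in the earlier series (0.0769%), 4 without the outlying arrays (13.3%) and 6 with array weights (16.4%). Atf4 was -0.16 without the outlying arrays and with array weights. With all probe sets of a gene averaged, the change of Atf6 was 0.082 in breast, that of Ern1 0.12 in breast and that of Pdia6 -0.036 in spleen. Without the outlying arrays the members that differed between tissues were 30 for breast and liver, 25 for liver and spleen, 20 for liver and blood (26.1% of all genes), 12 for liver and thymus (9.33%) and 17 for spleen and thymus (28.6%), and the correlation of Hspa5 and Asns in liver was 0.14. Leaving out outlying pairs singly gave 22 rising in breast (30.1% to 31% of all genes) and 7 to 17 in liver (7.41% to 11%). It gave 10 to 13 in spleen (21.8% to 24.8%), 7 to 9 in blood (8.14% to 9.20%) and 0 in thymus (0.00% to 0.115%). Dim probe sets, that of Psat1 near the floor, limit what can be seen of Trib3, Psat1 and Slc7a11 in blood. The causes of these shifts were not tested.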

Other observations

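Changes of other genes with the same promoter letters were also counted. Of 12 measured genes outside the 34 that held ERSE, 3 rose and 5 fell in breast, with a median change of -0.09, beside a median of -0.03 over all genes. Of 462 such genes with CARE 109 rose and 151 fell in breast (median -0.05), where 30% and 32.3% of all genes did. In spleen 102 rose and 68 fell (22.4% and 18.3% of all genes), and 128 and 99 without the outlying arrays (28.9% and 26.4%). In blood 48 rose and 20 fell (8.66% and 4.27%), and 59 and 58 without the outlying arrays (10.8% and 13.3%). The 7 genes with ERSE-II had a median of 0.33 in breast, with 4 rising and 1 falling, where 30% and 32.3% of all genes did. In liver their median was 0.34, with 0 rising and 0 falling (7.89% and 2.28% of all genes). Without the outlying arrays it was 0.09 in liver, with 4 rising and 1 falling (18.6% and 18.9%).

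Across tissues of linked mice, 6 correlations of changes were computed, chosen after seeing the data, and none passed. The change of Asns in spleen and in blood gave r = 0.17 and rho = 0.19 over 25 mice (adjusted permutation p = 0.573 for r), and r was 0.50 in the 17 mice without an outlying array in either tissue. That of Slc7a5 gave r = 0.12 and rho = 0.25 (adjusted permutation p = 0.573). Slc7a11, the cystine transporter, was the member that passed in none of the 5 tissues, with changes from -0.07 in liver to 0.08 in breast.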
